A study of Saccharomyces cerevisiae with 18 samples.

Results

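Sulfate uptake and assimilation in *Saccharomyces cerevisiae* was followed through 10 genes, *SUL1*, *SUL2*, *MET3*, *MET14*, *MET16*, *MET5*, *MET10*, *MET1*, *MET8* and *MET22*. Their systematic names are YBR294W, YLR092W, YJR010W, YKL001C, YPR167C, YJR137C, YFR030W, YKR069W, YBR213W and YOL064C, in the same order. They were picked by name for their place in the pathway, with earlier results of these data known, and were 10 of the 5830 genes in the table. Poly(A) RNA was sequenced from 18 libraries, 3 independent cultures of each of 6 strains, grown in the rich medium YPD. The study asked how transcription depends on ISW1a, the chromatin remodeler in which Ioc3 is paired with the ATPase Isw1, with and without Yaf9. Yaf9 is a subunit of both the NuA4 histone acetyltransferase and the SWR1 remodeler. The strains were *ioc3*Δ *yaf9*Δ, which lacks both genes, *ioc3*Δ*cHLB yaf9*Δ, which lacks *YAF9* and carries an Ioc3 with part of its linker DNA binding domain (HLB) removed, *yaf9*Δ, *ioc3*Δ, *ioc3*Δ*cHLB* and wild type. All 6 are labelled BY4742 with a FLAG epitope tag, wild type included. The study's methods describe tagged *IOC3* and its truncated form as selected transformants of BY4742. They do not say what carries the tag in strains without *IOC3*. How many clones stand behind each strain is not given in the sources used here.

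The libraries held 5145170 to 10192972 reads, so that 1 read was worth 0.0854 to 0.2011 CPM (counts scaled to a library of fixed size), the unit used throughout. *IOC3* averaged 0.0453 CPM in *ioc3*Δ *yaf9*Δ and 0.119 CPM in *ioc3*Δ, against 60.1 CPM in wild type. *YAF9* had no reads in either strain that combines its deletion with an *IOC3* mutation, 0.131 CPM in *yaf9*Δ and 33.8 CPM in wild type. The strain background label was a different matter. BY4742 is known as a MATα strain with deletions at *HIS3*, *LEU2*, *LYS2* and *URA3*, but the a-cell pheromone receptor gene *STE2* had 669.6 to 1054 CPM and the α-factor gene *MF(ALPHA)1* 0.512 to 4.20 CPM. The 6 a-cell markers summed to 1986 to 2943 CPM and the 4 α-cell markers to 30.4 to 63.2 CPM. *LYS2* had 156 to 228 CPM, *URA3* 113 to 209 CPM and *LEU2* 42.8 to 205 CPM. *HIS3* had 8.29 to 18.5 CPM, and whether its deletion would remove all of its reads was not examined. All 18 libraries went against the label in this way, wild type and mutants alike, and the part of this in the results below was not tested. The library furthest from its replicates was *ioc3*Δ*cHLB yaf9*Δ replicate 1, with a correlation of 0.976 to the mean of the other 2, and wild-type replicate 2 came next at 0.982. Such bulk libraries cannot tell fewer expressing cells from less RNA per cell.

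Yeast takes up sulfate through the permeases Sul1 and Sul2, activates it with ATP, and reduces it in steps to sulfide, which is then built into homocysteine, methionine and cysteine. Transcription of the pathway is driven by the activator Met4, which does not bind DNA itself and is brought to promoters by Cbf1 and by Met31 or Met32, with Met28 as a further cofactor. When sulfur amino acids are plentiful, as in rich medium, the ubiquitin ligase subunit Met30 holds Met4 down.

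The promoters are shown first because the binding core of Cbf1, CACGTG, is the feature that nearly all of these genes share. It reads the same on both strands. In the 400 bases before the start codon it was present in 9 of the 10 genes, against 5.13% of the 5631 such windows in the genome, and *SUL1* was the exception. The genes with at least 2 copies were *SUL2*, *MET3*, *MET5* and *MET10*, 4 of 10 against 0.533% of windows. The core of Met31 and Met32, searched as CTGTGG on both strands, lay before *SUL2*, *MET3* and *MET10*, 3 of 10 against 10.3% of windows. The core of Gcn4, the activator of general amino acid control, searched as TGACTC on both strands, lay before *SUL1*, *MET16*, *MET5* and *MET22*, 4 of 10 against 10.5% of windows. No match overlapped another. A match describes letters in a window and is not a measured binding site. The sequences below are from the RefSeq genome, build R64, written 5′ to 3′ on the strand of the gene. Capitals mark CACGTG, and also CTGTGG in *SUL2* and TGACTC in *MET16*. The windows are chrXII:323198-323253 for *SUL2*, chrX:455850-455896 for *MET3*, chrX:683572-683630 for *MET5* and chrVI:213051-213098 for *MET10*, the genes with paired cores, then chrXI:439596-439625 for *MET14*, chrXI:571332-571361 for *MET1*, chrII:650147-650176 for *MET8*, chrXV:207294-207323 for *MET22* and a longer stretch, chrXVI:877713-877832, for *MET16*. The genes *SUL2*, *MET3*, *MET10*, *MET1* and *MET8* lie on the plus strand and *MET5*, *MET14*, *MET22* and *MET16* on the minus strand, and no window touches an annotated gene.
SUL2: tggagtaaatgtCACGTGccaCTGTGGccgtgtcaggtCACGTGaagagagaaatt
MET3: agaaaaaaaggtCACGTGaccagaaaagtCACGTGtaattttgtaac
MET5: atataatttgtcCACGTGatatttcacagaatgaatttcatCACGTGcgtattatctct
MET10: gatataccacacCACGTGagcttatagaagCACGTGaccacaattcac
MET14: tgccactaatttCACGTGatcaatatattt
MET1: aatgccattatgCACGTGacattacaaatt
MET8: gcgtcataatttCACGTGttataatagcca
MET22: gacgagcaatatCACGTGttgcgattttac
MET16: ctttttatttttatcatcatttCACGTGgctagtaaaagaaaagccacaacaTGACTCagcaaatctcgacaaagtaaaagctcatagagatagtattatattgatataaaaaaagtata

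**Figure D1:**
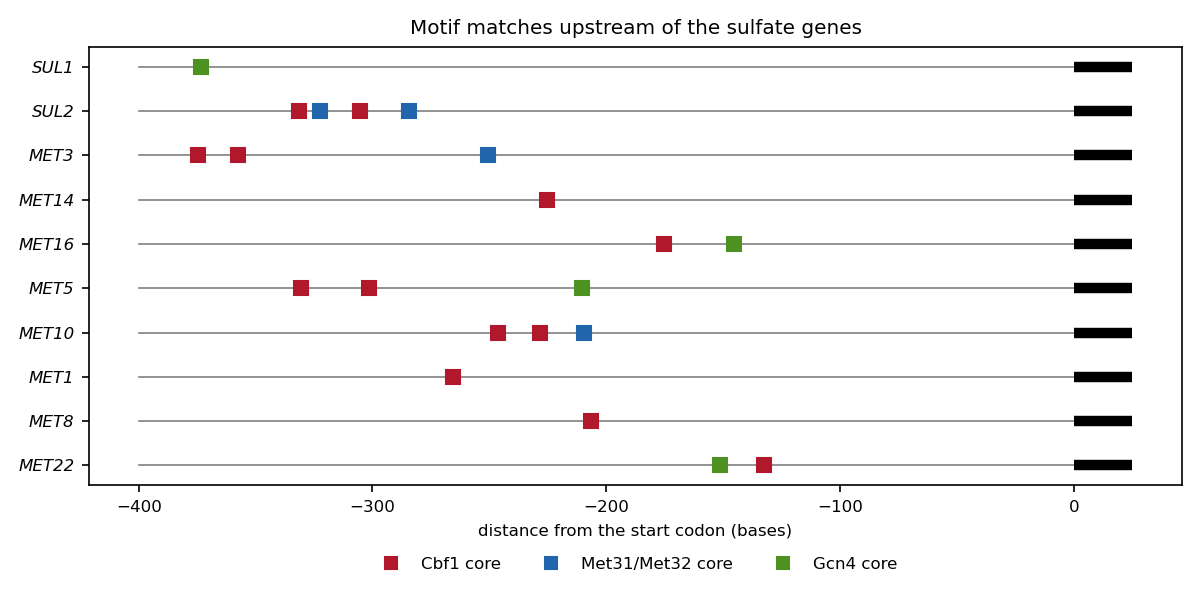
Positions of the 3 motif cores in the 400 bases before the start codon of each gene. The horizontal axis gives the distance from the start codon in bases, squares mark matches on either strand and the black bars stand for the start of the coding sequence. A Cbf1 core is present in 9 of the 10 rows, and the *SUL1* row has a Gcn4 core only.

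Per kilobase of coding sequence, *MET22* was the most abundant at 126 CPM per kilobase over the 18 libraries, followed by *MET14* at 79.3 and *MET3* at 40.2. *MET5*, *MET16*, *MET10* and *MET1* lay between 29.7 and 19.3 CPM per kilobase, *MET8* at 12.6, *SUL2* at 2.99 and *SUL1* at 0.641. Both permease genes were therefore the least abundant members. All 10 genes had a single coding segment, between 609 and 4329 bases long, and overlapped no other annotated gene. *SUL1* and *SUL2* coding sequences were 64.7% identical, and whether any reads match both was not examined.

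*MET3* (chrX:456239-457774) encodes ATP sulfurylase, which activates sulfate. It had 32.6, 30.3 and 40.0 CPM in *ioc3*Δ *yaf9*Δ, 38.2, 45.6 and 49.9 CPM in the *ioc3*Δ*cHLB yaf9*Δ strain, 135, 104 and 129 CPM in *yaf9*Δ, 39.9, 34.9 and 58.8 CPM in *ioc3*Δ, 34.7, 56.4 and 41.1 CPM in *ioc3*Δ*cHLB*, and 103, 56.3 and 80.4 CPM in wild type. The *yaf9*Δ libraries were the highest, wild type lay between, and all 4 strains with an *IOC3* mutation were low, with wild-type replicate 2 inside their range. *MET14* (chrXI:438777-439385), the APS kinase of the next step, had 22.2, 24.7 and 35.8 CPM in *ioc3*Δ *yaf9*Δ, 46.9, 35.1 and 31.0 CPM in the *ioc3*Δ*cHLB yaf9*Δ strain, 96.6, 80.6 and 86.8 CPM in *yaf9*Δ, 31.8, 28.2 and 51.5 CPM in *ioc3*Δ, 29.6, 46.7 and 24.0 CPM in *ioc3*Δ*cHLB*, and 81.1, 46.1 and 70.7 CPM in wild type. The order of the strains was close to that of *MET3*, and again wild-type replicate 2 fell among the *IOC3* mutants.

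*MET16* (chrXVI:876847-877632) encodes PAPS reductase, which makes sulfite. It had 14.1, 13.1 and 14.4 CPM in *ioc3*Δ *yaf9*Δ, 15.9, 13.7 and 15.9 CPM in the *ioc3*Δ*cHLB yaf9*Δ strain, 25.9, 21.9 and 26.5 CPM in *yaf9*Δ, 20.7, 17.3 and 17.2 CPM in *ioc3*Δ, 23.3, 20.8 and 16.6 CPM in *ioc3*Δ*cHLB*, and 20.7, 25.6 and 27.0 CPM in wild type. All 6 libraries with both mutations were below the other 12.

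Sulfite reductase, which makes sulfide, is built from the products of *MET5* and *MET10*. *MET5* (chrX:678957-683285) had 70.0, 64.1 and 91.4 CPM in *ioc3*Δ *yaf9*Δ, 90.3, 99.0 and 108 CPM in the *ioc3*Δ*cHLB yaf9*Δ strain, 205, 154 and 187 CPM in *yaf9*Δ, 146, 136 and 164 CPM in *ioc3*Δ, 100.2, 142 and 109 CPM in *ioc3*Δ*cHLB*, and 191, 117 and 142 CPM in wild type. Unlike *MET3* and *MET14*, its *ioc3*Δ libraries lay inside the wild-type range. *MET10* (chrVI:213312-216419) had 58.6, 54.3 and 52.9 CPM in *ioc3*Δ *yaf9*Δ, 46.6, 69.1 and 70.6 CPM in the *ioc3*Δ*cHLB yaf9*Δ strain, 101, 82.7 and 86.5 CPM in *yaf9*Δ, 72.2, 64.9 and 72.2 CPM in *ioc3*Δ, 75.6, 83.3 and 79.7 CPM in *ioc3*Δ*cHLB*, and 95.5, 114 and 79.2 CPM in wild type. Its 6 libraries with both mutations were all below the *ioc3*Δ*cHLB*, *yaf9*Δ and wild-type libraries.

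The enzyme needs the cofactor siroheme, which Met1 and Met8 make. *MET8* (chrII:650368-651192) was lower in the strains without *YAF9*. It had 6.39, 5.94 and 7.73 CPM in *ioc3*Δ *yaf9*Δ, 5.43, 5.55 and 8.73 CPM in the *ioc3*Δ*cHLB yaf9*Δ strain, 9.14, 5.33 and 8.90 CPM in *yaf9*Δ, 12.6, 16.5 and 14.4 CPM in *ioc3*Δ, 12.2, 17.3 and 11.4 CPM in *ioc3*Δ*cHLB*, and 13.4, 10.8 and 15.6 CPM in wild type. The 9 libraries without *YAF9* did not overlap the 9 libraries with it. How many of all genes split in this way, or as *MET16* and *MET10* did, was not counted. *MET1* (chrXI:571612-573393) was nearly level, with strain means between 31.9 CPM in *ioc3*Δ *yaf9*Δ and 37.3 CPM in *yaf9*Δ.

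The permease gene *SUL2* (chrXII:323544-326225) had 4.49, 4.85 and 4.66 CPM in *ioc3*Δ *yaf9*Δ, 3.42, 7.02 and 6.69 CPM in the *ioc3*Δ*cHLB yaf9*Δ strain, 12.1, 9.54 and 9.89 CPM in *yaf9*Δ, 7.04, 7.09 and 7.82 CPM in *ioc3*Δ, 7.36, 8.99 and 8.83 CPM in *ioc3*Δ*cHLB*, and 8.51, 16.8 and 9.31 CPM in wild type. Here wild-type replicate 2 was the highest of all 18 libraries. *SUL1* (chrII:789235-791814), the second permease gene, was close to the detection limit, with 5 to 23 reads in a library. It had 1.495, 1.09 and 2.70 CPM in *ioc3*Δ *yaf9*Δ, 1.61, 1.96 and 1.31 CPM in the *ioc3*Δ*cHLB yaf9*Δ strain, 1.31, 0.991 and 1.24 CPM in *yaf9*Δ, 2.57, 1.88 and 2.84 CPM in *ioc3*Δ, 1.502, 2.11 and 1.87 CPM in *ioc3*Δ*cHLB*, and 0.698, 1.79 and 0.805 CPM in wild type. Its *ioc3*Δ libraries were all above its wild-type libraries, opposite to *SUL2*. *MET22* (chrXV:206103-207176), whose product clears an adenosine bisphosphate by-product of the pathway, ranged from 125 CPM in *ioc3*Δ*cHLB* to 145 CPM in wild type as strain means.

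**Figure D2:**
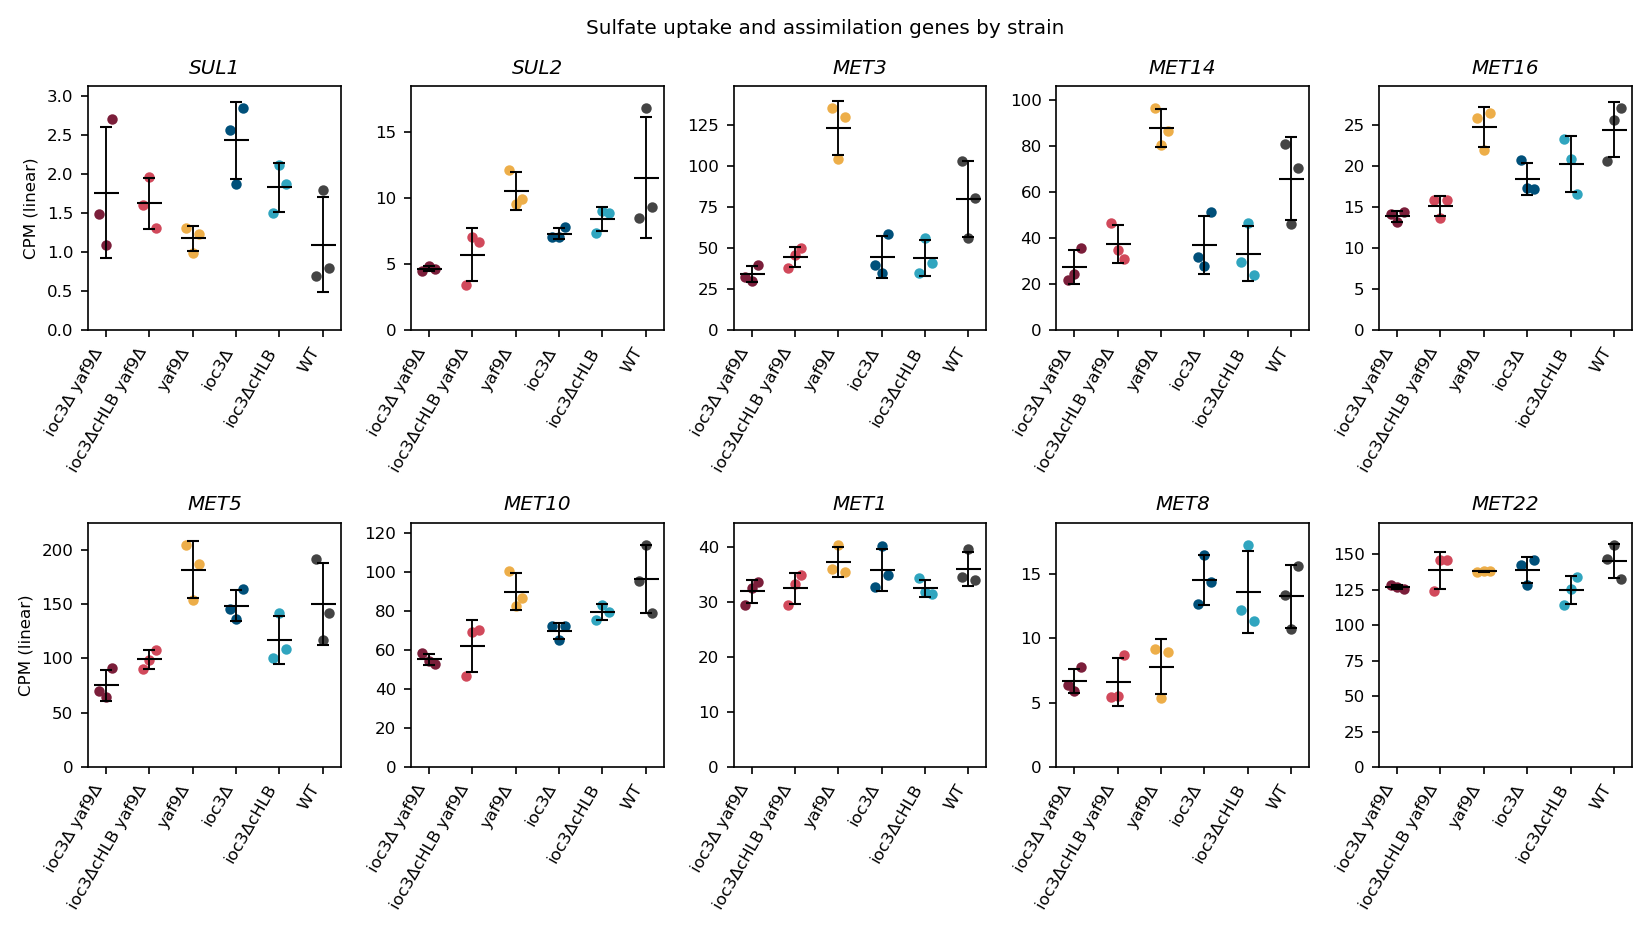
CPM of each gene on a linear axis, by strain. Points are the 3 libraries of a strain, long ticks the mean and bars the SD. *MET3* and *MET14* are highest in *yaf9*Δ, with means of 123 and 88.0 CPM, and *MET8* is lower in the 3 strains without *YAF9*, with means of 6.57 to 7.79 CPM against 13.3 to 14.5 CPM in the others.

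Changes below are differences of log2(CPM + 1) ± SE from limma, with 3 libraries per strain. A call required a change of 1.5-fold or more together with a Benjamini-Hochberg adjusted p below 0.1. The effect of *IOC3* in cells without *YAF9* was read by setting *ioc3*Δ *yaf9*Δ against *yaf9*Δ. Of the 10 genes, 6 were called, all lower, against 6.17% called lower and 9.7% called in either direction among the 5786 genes tested. The median change of the 10 was −0.74, against 0.01 over all genes. The genes of sulfate activation fell most. *MET3* averaged 34.3 ± 5.06 CPM in *ioc3*Δ *yaf9*Δ and 123 ± 16.3 CPM in *yaf9*Δ (SD, n = 3 each), which is −1.81 ± 0.23 (adjusted p = 8.44e-05), or 0.279 times the *yaf9*Δ level. *MET14* changed by −1.67 ± 0.27 (adjusted p = 0.000829), with means of 27.6 ± 7.28 CPM in *ioc3*Δ *yaf9*Δ and 88.0 ± 8.08 CPM in *yaf9*Δ. The reduction steps fell too. *MET5* changed by −1.27 ± 0.18 (adjusted p = 0.000248), *MET16* by −0.79 ± 0.14 (adjusted p = 0.00147) and *MET10* by −0.69 ± 0.15 (adjusted p = 0.00657). The permease gene *SUL2* changed by −1.02 ± 0.23 (adjusted p = 0.00844). The other 4 genes were not called, with *MET1* at −0.22 ± 0.11, *MET8* at −0.17 ± 0.22, *MET22* at −0.12 ± 0.09 and *SUL1* at 0.30 ± 0.23 (adjusted p between 0.183 and 0.646). The libraries of both strains did not overlap for 8 of the 10 genes, all lower in *ioc3*Δ *yaf9*Δ, and for 42.8% of all genes. All 6 calls held when any single library was left out and in each other alternative tried.

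Truncating the HLB domain in cells without *YAF9* gave 5 calls against *yaf9*Δ, all of them lower, where 2.63% of all genes were called lower and 4.63% in either direction. This comparison shares its *yaf9*Δ libraries with the one before. The median change was −0.61 against −0.01 over all genes. *MET3* changed by −1.44 ± 0.23 (adjusted p = 0.00224), with means of 44.6 ± 5.91 CPM in *ioc3*Δ*cHLB yaf9*Δ and 123 ± 16.3 CPM in *yaf9*Δ. *MET14* changed by −1.22 ± 0.27 (adjusted p = 0.0156) and *MET5* by −0.86 ± 0.18 (adjusted p = 0.0115). *SUL2* (−0.82 ± 0.23, adjusted p = 0.0504) and *MET16* (−0.67 ± 0.14, adjusted p = 0.0108) completed the calls, while *MET10* (−0.55 ± 0.15, adjusted p = 0.0471) fell short of 1.5-fold. The *SUL2* call was lost without *ioc3*Δ*cHLB yaf9*Δ replicate 1 (−0.55, adjusted p = 0.103), *yaf9*Δ replicate 1 (−0.72, 0.208) or *yaf9*Δ replicate 3 (−0.86, 0.125), and *MET10* was called without *ioc3*Δ*cHLB yaf9*Δ replicate 2 (−0.63, 0.0552), replicate 3 (−0.65, 0.0391) or *yaf9*Δ replicate 2 (−0.60, 0.0806).

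**Figure D3:**
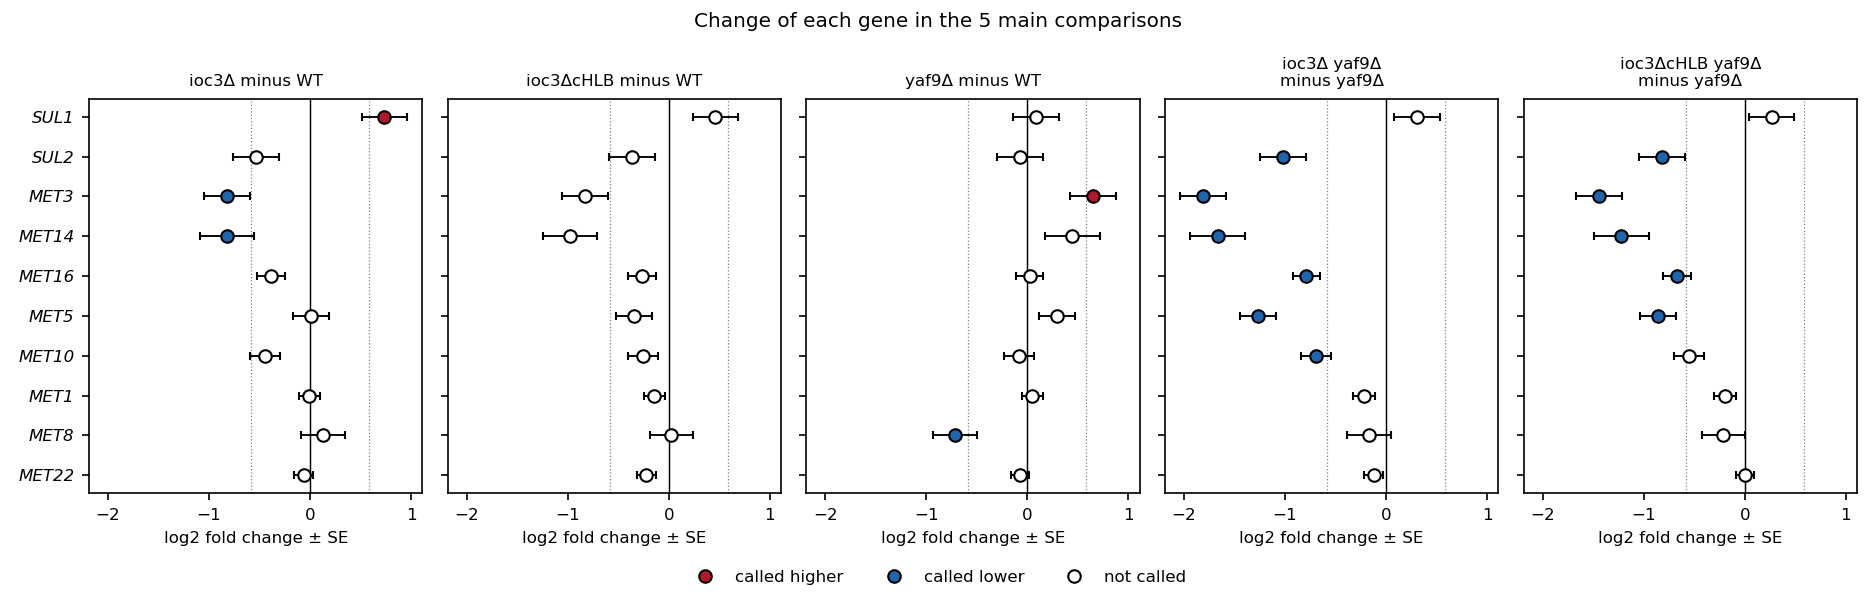
Change of each gene in 5 comparisons, as the log2 fold change on the log2(CPM + 1) scale with bars for ±1 SE. Filled points were called, open points were not, and dotted lines mark 1.5-fold. Both right-hand panels, which compare strains without *YAF9*, hold 6 and 5 genes called lower, and *MET3* is the lowest point in each, at −1.81 and −1.44.

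With *YAF9* present, both activation genes were lower without Ioc3, and the 1 higher call was *SUL1*. In *ioc3*Δ against wild type, 2 genes were called lower and 1 higher, against 3.11% called lower, 9.04% called higher and 12.2% called in either direction among all genes. The count of 1 higher was near the share of all genes. *MET3* averaged 44.6 ± 12.6 CPM in *ioc3*Δ and 79.9 ± 23.3 CPM in wild type (−0.82 ± 0.23, adjusted p = 0.0195). *MET14* averaged 37.2 ± 12.6 CPM in *ioc3*Δ and 66.0 ± 17.97 CPM in wild type (−0.82 ± 0.27, adjusted p = 0.0425). For both genes the 3 *ioc3*Δ libraries overlapped wild type through 1 library of each strain, *ioc3*Δ replicate 3 and wild-type replicate 2. *SUL1* averaged 2.43 ± 0.497 CPM in *ioc3*Δ and 1.098 ± 0.604 CPM in wild type, and rose by 0.74 ± 0.23 (adjusted p = 0.0317). *MET10* (−0.44 ± 0.15, adjusted p = 0.0453) and *MET16* (−0.38 ± 0.14, adjusted p = 0.0588) passed the adjusted p and not the fold, and *SUL2* was at −0.53 ± 0.23 (adjusted p = 0.11), but was called lower by edgeR (−0.65, 0.0725) and DESeq2 (−0.67, 0.0485), which then made 4 calls, and by limma without wild-type replicate 1 (−0.70, 0.0663). *MET5* was at 0.01 ± 0.18, with a 95% interval of −0.37 to 0.39. The *MET3* call held without any single library, at −1.05 to −0.62. *MET14* was not called without wild-type replicate 1 (−0.66, adjusted p = 0.154), wild-type replicate 3 (−0.75, 0.117), *ioc3*Δ replicate 1 (−0.74, 0.128) or *ioc3*Δ replicate 2 (−0.65, 0.138), and *SUL1* was not without wild-type replicate 1 (0.60, 0.119), wild-type replicate 3 (0.65, 0.105) or *ioc3*Δ replicate 3 (0.65, 0.114). With a pseudocount of 5 the *SUL1* change was 0.29 (adjusted p = 0.0355), under 1.5-fold.

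Truncation alone gave no call. Against wild type, limma called 0 of the 10 genes in *ioc3*Δ*cHLB*, against 0.346% of all genes in either direction. At an unadjusted p under 0.05 there were 3, and edgeR called 0 and DESeq2 2. *MET3* averaged 44.1 ± 11.1 CPM in the *ioc3*Δ*cHLB* strain and 79.9 ± 23.3 CPM in wild type (−0.83 ± 0.23, adjusted p = 0.194), a mean close to that in *ioc3*Δ. *MET14* averaged 33.4 ± 11.8 CPM in the *ioc3*Δ*cHLB* strain and 66.0 ± 17.97 CPM in wild type (−0.98 ± 0.27, adjusted p = 0.214). Both were called without wild-type replicate 2 (*MET3* −1.06, adjusted p = 0.0534, and *MET14* −1.21, adjusted p = 0.072), and both were the genes that DESeq2 called. The median change was −0.26 against 0.00 over all genes.

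Deletion of *YAF9* alone moved 1 gene each way. In *yaf9*Δ against wild type *MET3* was called higher and *MET8* lower, against 3.91% and 3.61% of all genes called higher and lower, and 7.52% called in all. With 10 genes, 1 call each way cannot be told from these shares. *MET3* averaged 123 ± 16.3 CPM in *yaf9*Δ and 79.9 ± 23.3 CPM in wild type (0.65 ± 0.23, adjusted p = 0.0762), and the libraries did not overlap. *MET8* averaged 7.79 ± 2.14 CPM in *yaf9*Δ and 13.3 ± 2.44 CPM in wild type (−0.72 ± 0.22, adjusted p = 0.0452). *MET14* was at 0.45 ± 0.27 and *MET5* at 0.29 ± 0.18 (adjusted p = 0.32 and 0.322). The *MET3* call was lost in 8 of 18 alternatives, among them the fits without wild-type replicate 2 (0.42, adjusted p = 0.301), wild-type replicate 3 (0.67, 0.143), *yaf9*Δ replicate 1 (0.58, 0.23) and *yaf9*Δ replicate 3 (0.61, 0.2), and *MET8* was not called without wild-type replicate 3 (−0.60, 0.158) or *yaf9*Δ replicate 2 (−0.50, 0.2).

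When *YAF9* was deleted in cells that already had an *IOC3* mutation, *MET8* fell in both. It averaged 6.69 ± 0.932 CPM in *ioc3*Δ *yaf9*Δ and 14.5 ± 1.93 CPM in *ioc3*Δ (−1.01 ± 0.22, adjusted p = 0.00323). The corresponding means were 6.57 ± 1.87 CPM in *ioc3*Δ*cHLB yaf9*Δ and 13.6 ± 3.199 CPM in *ioc3*Δ*cHLB* (−0.95 ± 0.22, adjusted p = 0.00946). Both calls held without any single library. *MET8* was the only call of the 10 with the truncation, against 5.06% of all genes called lower and 8.92% called in all. With the deletion *MET5* was called as well, at 75.2 ± 14.4 CPM in *ioc3*Δ *yaf9*Δ and 149 ± 14.1 CPM in *ioc3*Δ (−0.99 ± 0.18, adjusted p = 0.00111), making 2 calls, both lower, against 9.96% of all genes called lower and 13.4% called in all. *SUL2* was called lower there by edgeR (−0.64, adjusted p = 0.0936) and DESeq2 (−0.61, 0.0991) and not by limma. With 10 genes, neither limma count can be told from the shares of all genes. *MET3* was at −0.34 ± 0.23 in *ioc3*Δ *yaf9*Δ against *ioc3*Δ and at 0.04 ± 0.23 in *ioc3*Δ*cHLB yaf9*Δ against *ioc3*Δ*cHLB* (adjusted p = 0.283 and 0.936). So the gene that rose in *yaf9*Δ against wild type was not called higher where *IOC3* was mutated, with upper 95% limits of 0.13 and 0.51.

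Against wild type, the strains with both mutations had the most calls. In *ioc3*Δ *yaf9*Δ, 7 genes were called, all lower, against 6.38% of all genes called lower and 12.3% in all. These were *MET14* (−1.22 ± 0.27), *MET3* (−1.16 ± 0.23), *SUL2* (−1.09 ± 0.23), *MET5* (−0.98 ± 0.18), *MET8* (−0.88 ± 0.22), *MET10* (−0.78 ± 0.15) and *MET16* (−0.77 ± 0.14), with adjusted p between 0.00134 and 0.00926. With the truncation and *YAF9* deleted, 6 genes were called, all lower, against 4.77% of all genes called lower and 8.87% in all. They ranged from *MET8* (−0.93 ± 0.22, adjusted p = 0.0102) to *MET10* (−0.63 ± 0.15, adjusted p = 0.0104), with *SUL2*, *MET3*, *MET14* and *MET16* between, and *MET5* at −0.57 ± 0.18 (adjusted p = 0.0449) fell just short of 1.5-fold. The *MET14* call in *ioc3*Δ*cHLB yaf9*Δ (−0.78 ± 0.27, adjusted p = 0.0666) was lost without wild-type replicate 1 or 3 or without *ioc3*Δ*cHLB yaf9*Δ replicate 2 or 3, at −0.74 to −0.61. *MET3* was not called there without wild-type replicate 1 (−0.59), *MET16* without wild-type replicate 3 (−0.57) or *ioc3*Δ*cHLB yaf9*Δ replicate 2 (−0.58) and *MET10* without wild-type replicate 2 (−0.50) or *ioc3*Δ*cHLB yaf9*Δ replicate 1 (−0.44), while *MET5* was called without wild-type replicate 2 (−0.73) or 3 (−0.59) or *ioc3*Δ*cHLB yaf9*Δ replicate 3 (−0.63). In *ioc3*Δ *yaf9*Δ against wild type the 7 calls held without any single library, and *SUL1* was called higher without wild-type replicate 2 (0.62, adjusted p = 0.0898).

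The truncation and the full deletion were set against each other directly. With *YAF9* present, *ioc3*Δ*cHLB* against *ioc3*Δ gave 0 calls among the 10 by limma, edgeR or DESeq2 and 0 at an unadjusted p under 0.05, against 9.99% of all genes called. The 95% interval of the difference was −0.49 to 0.47 for *MET3*, −0.73 to 0.42 for *MET14*, −0.73 to 0.02 for *MET5* and −0.31 to 0.65 for *SUL2*. Without *YAF9*, *ioc3*Δ*cHLB yaf9*Δ against *ioc3*Δ *yaf9*Δ gave 0 calls by the same 3 tools and 1 at an unadjusted p under 0.05, *MET5*, against 4.8% of all genes called. *MET5* averaged 99.2 ± 8.97 CPM in *ioc3*Δ*cHLB yaf9*Δ and 75.2 ± 14.4 CPM in *ioc3*Δ *yaf9*Δ (0.41 ± 0.18, 95% interval 0.03 to 0.79, adjusted p = 0.181). The intervals for *MET3* (−0.11 to 0.85) and *MET14* (−0.13 to 1.02) leave room for levels up to about that much higher with the truncation.

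Whether loss of Ioc3 acted differently without *YAF9* was tested as an interaction, the change in *ioc3*Δ *yaf9*Δ against *yaf9*Δ minus the change in *ioc3*Δ against wild type. It was negative for all 10 genes, with a median of −0.42 against −0.05 over all genes, and 2 genes were called lower, against 6.12% of all genes called lower and 9.38% in all. *MET5* had an interaction of −1.28 ± 0.25 (adjusted p = 0.0138), from a change of −1.27 without *YAF9* and of 0.01 with it, and was called in every alternative. *MET3* had an interaction of −0.99 ± 0.32 (adjusted p = 0.0706), which was not called in 10 of its 24 alternatives, at −1.05 to −0.76 in the fits without wild-type replicate 2 or 3, *ioc3*Δ replicate 1 or 3, *yaf9*Δ replicate 1 or 3, or *ioc3*Δ *yaf9*Δ replicate 1 or 2. *MET14* was at −0.84 ± 0.38 (adjusted p = 0.182), and was called without *ioc3*Δ *yaf9*Δ replicate 3 (−1.04, adjusted p = 0.0884), and *SUL2* at −0.48 ± 0.32 (adjusted p = 0.374). *MET8*, by contrast, had an interaction of −0.30 ± 0.31 (adjusted p = 0.594). The same interaction for the truncation gave 0 calls among the 10 by limma, edgeR or DESeq2 and 0 at an unadjusted p under 0.05, against 0.121% of all genes. *MET3* was there at −0.61 ± 0.32 and *MET5* at −0.52 ± 0.25 (adjusted p = 0.835 and 0.81).

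*MET1* and *MET22* were called in none of the 13 comparisons and their highest strain mean was 1.17 times the lowest. For *MET3* the same ratio was 3.58, for *MET14* 3.19, for *SUL2* 2.47 and for *MET5* 2.42. Both of the level genes hold a single Cbf1 core before the start codon, as printed above, and so do *MET14*, *MET16* and *MET8*. Whether the number of cores relates to the changes was not tested.

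Some pairs of genes also varied together within strains. Over the 18 libraries, log2(CPM + 1) of *SUL2* and *MET10* had a Pearson correlation of 0.963, and of 0.868 after each strain's mean was taken out. *MET3* and *MET14* had 0.944 over all libraries and 0.738 within strains, and *MET3* and *MET5* 0.830 over all and 0.925 within strains. *SUL2* and *MET3*, on the other hand, had 0.638 over all libraries and −0.05 within strains. Of the 45 pairs, 20 were above 0.5 and 8 were negative, and *SUL1* was in each of the 8, the lowest being −0.47 with *MET3*. The points share library, depth and strain, so these values are descriptions.

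**Figure D4:**
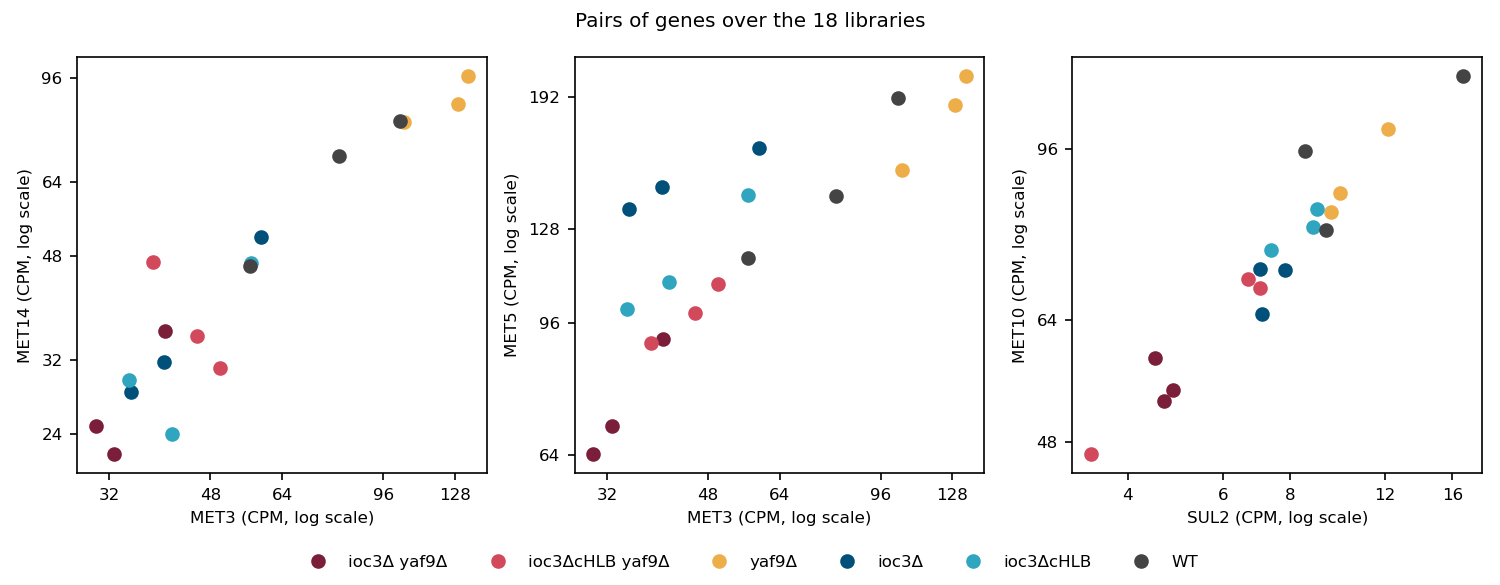
CPM of 3 pairs of genes in the 18 libraries, on log axes, coloured by strain. *MET3* and *MET14* separate *yaf9*Δ from the *IOC3* mutants, the *ioc3*Δ libraries sit high in *MET5* for their *MET3*, and *SUL2* and *MET10* fall along a line with wild-type replicate 2 at its upper end (16.8 and 114 CPM).

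Outside the 10, the genes whose log2(CPM + 1) followed the mean scaled value of the members most closely over the 18 libraries were *NDE1* (r = 0.904), a mitochondrial external NADH dehydrogenase gene, *YVC1* (0.864), a vacuolar cation channel gene, *ECM7* (0.855), *MMF1* (0.852) and *GIP3* (0.851). *NDE1* averaged 641 CPM in *ioc3*Δ *yaf9*Δ, 662 CPM where the deletion was replaced by the truncation, 1024 CPM in *yaf9*Δ, 923 CPM in *ioc3*Δ, 874 CPM in the *ioc3*Δ*cHLB* strain and 1054 CPM in wild type.

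The regulators of the pathway had few calls in RNA level, and so had all genes. The shares of all genes called by limma in either direction were 12.2% in *ioc3*Δ, 0.346% in *ioc3*Δ*cHLB* and 7.52% in *yaf9*Δ against wild type. In *ioc3*Δ*cHLB yaf9*Δ against *yaf9*Δ the share was 4.63%. With 6 genes, 0 calls cannot be told from these shares. *MET28* and *MET32* were weakly counted, at 1.95 to 8.58 and 2.79 to 6.53 CPM. Of *MET4*, *CBF1*, *MET28*, *MET31*, *MET32* and *MET30*, 0 of 6 were called in *ioc3*Δ, *ioc3*Δ*cHLB* or *yaf9*Δ against wild type or in *ioc3*Δ*cHLB yaf9*Δ against *yaf9*Δ by limma, edgeR or DESeq2, with 0 to 1 at an unadjusted p under 0.05. In *ioc3*Δ *yaf9*Δ against *yaf9*Δ only *MET32* was called, against 6.17% of all genes called lower. It had 4.08, 2.97 and 4.17 CPM in *ioc3*Δ *yaf9*Δ and 6.53, 5.45 and 6.43 CPM in *yaf9*Δ (−0.60 ± 0.23, adjusted p = 0.091). That call was lost in 11 of 17 alternatives, at −0.67 to −0.47 without *yaf9*Δ replicate 1, 2 or 3 or *ioc3*Δ *yaf9*Δ replicate 1 or 2, and the replicate block moved its adjusted p to 0.1001. In that comparison *MET4* was at 0.21 ± 0.15, *CBF1* at 0.20 ± 0.14 and *MET30* at −0.16 ± 0.12 (adjusted p between 0.352 and 0.38).

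Downstream of sulfide, 18 genes of homocysteine, methionine, cysteine and AdoMet synthesis were followed. In *ioc3*Δ *yaf9*Δ against *yaf9*Δ, 7 of 18 were called, all lower, against 6.17% of all genes called lower, with a median change of −0.42 against 0.01 over all genes. Without *ioc3*Δ *yaf9*Δ replicate 1 there were 4. The methionine synthase gene *MET6* had 148, 172 and 265 CPM in *ioc3*Δ *yaf9*Δ and 1423, 1154 and 1351 CPM in *yaf9*Δ (−2.78 ± 0.28, adjusted p = 1.3e-05). The sulfide-fixing enzyme gene *MET17* had 191.5, 166 and 392 CPM in *ioc3*Δ *yaf9*Δ and 1114, 854 and 1029 CPM in *yaf9*Δ (−2.10 ± 0.42, adjusted p = 0.00396). The AdoMet synthetase gene *SAM2* changed by −1.72 ± 0.29 and the homocysteine methyltransferase gene *MHT1* by −1.55 ± 0.28. These 4 calls held in all 17 alternatives. With the truncation in place of the deletion, 3 of 18 were called, all lower, *MET6*, *MET17* and *SAM2*, against 2.63% of all genes. Of them *MET6* held in all 17 alternatives, *MET17* was lost in 9, among them edgeR, DESeq2 and the fits without *yaf9*Δ replicate 1, 2 or 3 or *ioc3*Δ*cHLB yaf9*Δ replicate 2 or 3 (−1.37 to −1.18), and *SAM2* was lost without *yaf9*Δ replicate 1 (−1.10, adjusted p = 0.134) or 3 (−1.13, 0.118), so that 1 of 18 was left without either library. In *ioc3*Δ against wild type 8 of 18 were called, all lower, against 3.11% of all genes called lower, and 5 without wild-type replicate 1 or *ioc3*Δ replicate 2 and 4 without *ioc3*Δ replicate 1. In *ioc3*Δ*cHLB* against wild type 0 of 18 were called by limma or edgeR, 2 by DESeq2, with 4 at an unadjusted p under 0.05, against 0.346% of all genes. In *yaf9*Δ against wild type 1 of 18 was called each way, against 3.91% of all genes higher and 3.61% lower. *CYS3*, the cystathionine gamma-lyase gene, was higher (0.74 ± 0.27, adjusted p = 0.0889), a call lost with the replicate block (adjusted p = 0.108) and without wild-type replicate 2 or 3 or any of the *yaf9*Δ libraries (0.58 to 0.82). *MET13*, a methylenetetrahydrofolate reductase gene, was lower (−0.88 ± 0.26), a call lost without wild-type replicate 2 (−0.44, adjusted p = 0.119), without *yaf9*Δ replicate 1 (−0.83, 0.131) or 2 (−0.86, 0.106) and with only the compared strains (0.115).

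Of 9 further genes of sulfur compound uptake and release, 3 were called in *ioc3*Δ *yaf9*Δ against *yaf9*Δ, all lower, against 6.17% of all genes called lower. They were the S-methylmethionine permease gene *MMP1* (−1.26 ± 0.26), the AdoMet permease gene *SAM3* (−0.95 ± 0.26) and the methionine permease gene *MUP1* (−0.79 ± 0.27). *MMP1* held in all 17 alternatives, *SAM3* was lost without *ioc3*Δ *yaf9*Δ replicate 1 (−0.89, adjusted p = 0.106), and *MUP1* was lost without *yaf9*Δ replicate 1, 2 or 3 or *ioc3*Δ *yaf9*Δ replicate 1 or 2, at −0.81 to −0.70. In *ioc3*Δ against wild type *SAM3* (−1.24 ± 0.26) and *MMP1* (−1.12 ± 0.26) were lower and *SOA1*, a transporter gene for inorganic sulfur compounds, was higher, at 9.32 CPM in *ioc3*Δ and 4.43 CPM in wild type (0.91 ± 0.18, adjusted p = 0.00319), the same direction as *SUL1*. These were 2 of 9 lower and 1 of 9 higher, against 3.11% and 9.04% of all genes, and the 3 calls held in all 18 alternatives. The count of 1 higher was near the share of all genes. Among 6 thioredoxin and glutathione genes, 1 was called in *yaf9*Δ against wild type, against 3.91% of all genes called higher, and 1 in *ioc3*Δ *yaf9*Δ against *yaf9*Δ, against 6.17% called lower. Both calls were of *TRX2*, one of the thioredoxins that serve PAPS reductase, which was higher in *yaf9*Δ than in wild type (0.95 ± 0.26) and lower in *ioc3*Δ *yaf9*Δ than in *yaf9*Δ (−0.82 ± 0.26). The first was lost without wild-type replicate 2 (0.84, adjusted p = 0.102) or *yaf9*Δ replicate 1 (0.85, 0.12). The second was lost without *yaf9*Δ replicate 1 (−0.72, adjusted p = 0.17) or 3 (−0.85, 0.104) or *ioc3*Δ *yaf9*Δ replicate 1 (−0.67, 0.202) or 2 (−0.65, 0.173).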

How the data were processed

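RNA was measured in 18 libraries of 6 strains with 3 cultures each, prepared with a stranded mRNA kit and sequenced as paired ends. Per the submitters' processing notes, TopHat2 (2.0.10) and Bowtie2 (2.0) placed the reads on sacCer3 and HTSeq counted them per gene. The authors deposited a signal per gene, CPM from edgeR (3.6.2) relative to a library size corrected by a normalization factor. Divided by the worth of 1 read, 100% of them in every library came out whole within 0.01 reads, which gave read counts. A value of 0 allows up to 3 reads, or 0.256 to 0.603 CPM, counting error only. Replicates of a strain differed by more than counting error, since chi-square divided by its degrees of freedom was 2.76 to 56.5. The 4 lines that were empty in the table are not analysed here.

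The test was limma (3.58.1, R 4.3.3) with trended variance, applied to log2(CPM + 1) in one fit of all libraries with a mean per strain. A gene entered with 1 CPM or more in 3 or more libraries, 5786 in all, and all 10 members passed. The 13 comparisons were adjusted by the Benjamini-Hochberg method across all genes tested, with the thresholds of the study's methods (adjusted p under 0.1, at least 1.5-fold). Intervals of 95% are for single genes and are not adjusted. The scale understates changes of weakly expressed genes such as *SUL1*. Alternatives were pseudocounts of 0.25 and 5, no filter, 2 other scalings, only the compared strains, array weights, an adjusted p under 0.05, the replicate number as a block, each library left out in turn, wild-type replicate 2 and *ioc3*Δ*cHLB* replicate 3 left out together, and edgeR (version 4.0.16, quasi-likelihood) and DESeq2 (version 1.42.0) on the recovered counts. The limma step was checked on simulated data.

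The labels number the cultures of each strain 1 to 3. Deviations from the strain means of equal-numbered libraries correlated above 0.1 in every pair for 2 of 15 pairs of strains, *ioc3*Δ with wild type (0.206, 0.212 and 0.11) and *ioc3*Δ *yaf9*Δ with *ioc3*Δ (0.230, 0.602 and 0.572), so the pairing of those rests on the data. The replicate block changed 0 of 130 calls of the members.

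Coordinates and windows are from the RefSeq annotation of R64, the same assembly as sacCer3, and 5634 genes matched it by systematic name. The members, the other gene lists and the tests were chosen with earlier results of these data known. All members and all 6 regulators were tested in every comparison, and each called member is named. Members that were not called are named in part. Of each further list at most 4 called genes are named in a comparison, and in some comparisons none. The lists were the regulators, methionine, cysteine and AdoMet genes, other sulfur uptake and release, thioredoxin and glutathione, markers of both mating types and genes that check the strains.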

Additional observations from a re-analysis of the deposited data

Results flagged for a closer look

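For *MET5* and *MET3* the effect of deleting *IOC3* differed between cells without and with *YAF9*, by the interaction term of the limma fit. *MET5* had an interaction of −1.28 ± 0.25 (Benjamini-Hochberg adjusted p = 0.0138). Its *ioc3*Δ *yaf9*Δ libraries were all below its *yaf9*Δ libraries, and its *ioc3*Δ libraries lay inside the wild-type range. *MET3* had an interaction of −0.99 ± 0.32 (adjusted p = 0.0706), with −1.81 in *ioc3*Δ *yaf9*Δ against *yaf9*Δ and −0.82 in *ioc3*Δ against wild type. The *MET3* interaction was not called in several alternatives, as given above.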

How the results depend on the processing

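No called change of the 10 genes turned its direction in any alternative. Of 2420 values of a gene in a comparison under another setting, 2338 kept their side of the thresholds, 53 lost a call and 29 gained one. Signs changed in 73 values, all of genes called in neither setting. The number of the 10 genes called moved as follows. In *ioc3*Δ against wild type it was 3, and 1 to 3 when single libraries were left out. For *ioc3*Δ*cHLB* against wild type it was 0, but 2 with DESeq2, and 0 to 2 without single libraries. In *yaf9*Δ against wild type it was 2, but 1 with a pseudocount of 5, read total scaling, array weights, an adjusted p under 0.05, or without wild-type replicate 2 and *ioc3*Δ*cHLB* replicate 3, and 0 to 2 without single libraries. For *ioc3*Δ*cHLB yaf9*Δ it was 5 against *yaf9*Δ, but 3 with a pseudocount of 5 and 4 to 6 without single libraries. Against *ioc3*Δ*cHLB* it was 1, but 2 with read total scaling. Against wild type it was 6, but 3 with only the compared strains and 4 to 6 without single libraries. The interaction of *ioc3*Δ with *yaf9*Δ was called for 2 genes, but for 5 with array weights, 1 at an adjusted p under 0.05, 1 without wild-type replicate 2 and *ioc3*Δ*cHLB* replicate 3, and 1 to 3 without single libraries. The causes were not tested. The other comparisons kept their number to within 1.5 times. With the replicate block the counts were the same, 3, 0, 2, 6 and 5 in the 5 comparisons plotted.

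Among all genes, calls in *ioc3*Δ*cHLB* against wild type numbered 20, but 45 with DESeq2, 2 with only the compared strains and 74 without wild-type replicate 2. The interaction of the truncation with *yaf9*Δ had 7 calls, but 0 with the replicate block or edgeR, 30 with DESeq2 and 221 with array weights. Array weights also gave 590 calls, not 268, in *ioc3*Δ*cHLB yaf9*Δ against *yaf9*Δ, 833, not 513, against wild type, 802, not 278, against *ioc3*Δ *yaf9*Δ, and 1195, not 543, in the interaction of *ioc3*Δ with *yaf9*Δ. Single libraries moved these counts as well. In *ioc3*Δ*cHLB yaf9*Δ against *ioc3*Δ *yaf9*Δ the 278 calls became 31 without *ioc3*Δ *yaf9*Δ replicate 1, 170 without its replicate 2, 36 and 56 without *ioc3*Δ*cHLB yaf9*Δ replicates 2 and 3, and 647 without *ioc3*Δ*cHLB yaf9*Δ replicate 1. Other ranges were 8 to 74 in *ioc3*Δ*cHLB* against wild type, 267 to 526 in *yaf9*Δ against wild type (435 as reported), 320 to 700 in *ioc3*Δ *yaf9*Δ against *yaf9*Δ (561), 144 to 462 in *ioc3*Δ*cHLB yaf9*Δ against *yaf9*Δ, 181 to 859 in the interaction of *ioc3*Δ with *yaf9*Δ and 0 to 23 in that of the truncation. The percentages of all genes called rest on these counts. Scaling by the read total in place of the effective library size shifted the median of all genes by −0.14 to −0.15 in *ioc3*Δ *yaf9*Δ against *ioc3*Δ, *ioc3*Δ*cHLB yaf9*Δ against *ioc3*Δ*cHLB* and *ioc3*Δ*cHLB yaf9*Δ against wild type. It changed the split of higher and lower calls there to 69 and 923 (202 and 576 as reported), 111 and 525 (223 and 293), and 149 and 532 (237 and 276). For *yaf9*Δ against wild type the split was 141 and 299 (226 and 209), for *ioc3*Δ against wild type 648 and 118 (523 and 180), for *ioc3*Δ*cHLB yaf9*Δ 93 and 193 (116 and 152) against *yaf9*Δ and 77 and 186 (118 and 160) against *ioc3*Δ *yaf9*Δ, and for the interaction of *ioc3*Δ with *yaf9*Δ 93 and 414 (189 and 354).

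The other listed genes were put through the same alternatives after seeing the data. The methionine, cysteine and AdoMet list had 4 to 8 genes called in *ioc3*Δ against wild type, 0 to 2 in *ioc3*Δ*cHLB*, 0 to 3 in *yaf9*Δ, 4 to 8 in *ioc3*Δ *yaf9*Δ against *yaf9*Δ and 1 to 3 in *ioc3*Δ*cHLB yaf9*Δ against *yaf9*Δ. Depth limited *SUL1* most, at 5 to 23 reads in a library.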

Other observations

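A few other sulfur genes were called between the truncation and the deletion, in comparisons where none of the 10 sulfate genes was. In *ioc3*Δ*cHLB yaf9*Δ against *ioc3*Δ *yaf9*Δ, 2 of 18 methionine, cysteine and AdoMet genes and 2 of 9 uptake and release genes were called by limma, all higher, against 4.8% of all genes called in either direction. *MET6* had 428, 484 and 496 CPM with the truncation and 148, 172 and 265 CPM in *ioc3*Δ *yaf9*Δ (1.31 ± 0.28, adjusted p = 0.0275). *MHT1* (1.14 ± 0.28, adjusted p = 0.0442), *MMP1* (1.26 ± 0.26, adjusted p = 0.023) and *SAM3* (0.95 ± 0.26, adjusted p = 0.0555) were the others. None of the 4 was called without *ioc3*Δ *yaf9*Δ replicate 1, with *MET6* at 1.13 (adjusted p = 0.166), or without *ioc3*Δ*cHLB yaf9*Δ replicate 2, with *MET6* at 1.28 (adjusted p = 0.131), and leaving out *ioc3*Δ*cHLB yaf9*Δ replicate 3 kept only *MMP1*. In *ioc3*Δ*cHLB* against *ioc3*Δ, 2 of 18 methionine, cysteine and AdoMet genes and 2 of 9 uptake and release genes were called, against 9.99% of all genes, so the first count was near the share of all genes. *MET6* (1.103 ± 0.28, adjusted p = 0.0155) was higher in all 18 alternatives. The homoserine pathway gene *HOM2* (0.70 ± 0.14, adjusted p = 0.0039), *SAM3* (0.74 ± 0.26, adjusted p = 0.0679) and *SOA1* (−0.69 ± 0.18, adjusted p = 0.0162) were not called without *ioc3*Δ*cHLB* replicate 3, at 0.58, 0.52 and −0.57.

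Within wild type, the members split by library. Replicate 2 was the lowest of the 3 for *MET3* (56.3 CPM), *MET14* (46.1 CPM), *MET5* (117 CPM) and *MET8* (10.8 CPM), and the highest for *SUL1* (1.79 CPM), *SUL2* (16.8 CPM), *MET10* (114 CPM), *MET1* (39.6 CPM) and *MET22* (157 CPM).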
